A study of Mus musculus with 12 samples.

Results

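RNA of 10 genes known as regulators or markers of long-term hematopoietic stem cells was measured in sorted mouse hematopoietic stem and progenitor cells (HSPCs) that had lost p300, Tet2, or both by their labels. The genes were Mecom, Hlf, Prdm16, Mllt3, Fgd5, Ctnnal1, Gfi1b, Egr3, Ndn and Tgm2. They were found by symbol in a count table of 46517 genes, and all 10 passed the filter on low counts that left 17842 genes for testing. The cells were LSK cells (lineage-negative, Sca-1+, c-Kit+) from the bone marrow of C57BL/6 mice of both sexes, 8 to 10 weeks old and 2 weeks after poly(I:C), a double-stranded RNA mimic that induces interferon. The 12 libraries fell into 4 groups of 3, which carry the labels WT, p300KO, Tet2KO and p300KO_Tet2KO and which the study describes as independent biological replicates.

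According to the study's methods, the WT mice were Ep300 fl/fl and the Tet2KO mice were Ep300 fl/fl with Tet2-/-. The p300KO mice were Ep300 fl/fl with Mx1-Cre, and the p300KO_Tet2KO mice Ep300 fl/fl and Tet2-/- with Mx1-Cre, which deletes the floxed Ep300 gene after poly(I:C). The series description instead calls the mice of every group Mx1-Cre+. If the control groups carried no Cre, the presence of Cre and the loss of Ep300 cannot be told apart here. The Mx1 promoter answers to interferon and is active in blood cells and also in other tissues, and Tet2-/- was present from the germline on. Whether a library pooled several mice is not given in the sources used here.

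Long-term stem cells are the rare, mostly quiescent cells at the top of the blood hierarchy, which can rebuild all blood lineages after transplantation. They are a small minority of LSK cells, and most cells in this gate are multipotent progenitors that have begun to lose the stem cell program. Mecom and Prdm16 are related zinc finger proteins with a PR domain, and Hlf is a basic leucine zipper factor of the PAR family, and each is needed to keep a functional stem cell pool in mice. Gfi1b is a repressor that limits stem cell expansion and drives erythroid and megakaryocytic development, and Egr3 is an immediate-early zinc finger factor. Mllt3 (AF9) reads acylated histones and joins the elongation machinery and the methyltransferase Dot1l. Fgd5 is an exchange factor for the small GTPase Cdc42, and Ctnnal1 encodes alpha-catulin, a relative of alpha-catenin. Reporter alleles of both genes mark mouse stem cells. Ndn encodes necdin, an imprinted growth suppressor of the MAGE family, and Tgm2 encodes a transglutaminase that crosslinks proteins. In bulk RNA, fewer cells of one type and less RNA per cell cannot be told apart.

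Library totals ran from 18773903 to 79573664 counts. Ep300 RNA was at 285 to 340 CPM (counts scaled to the TMM-adjusted size of the library) in WT and 313 to 350 CPM in Tet2KO, against 176 to 233 CPM in p300KO and 166 to 179 CPM in p300KO_Tet2KO. Tet2 RNA was at 38.6 to 56.6 CPM in Tet2KO, below the 120 to 139 CPM of WT, but the libraries labelled p300KO_Tet2KO held 101 to 145 CPM. Tet2 was 1.38 log2 units higher in the libraries labelled p300KO_Tet2KO than in Tet2KO (SE 0.158, adjusted p = 0.000571, edgeR quasi-likelihood test). These 3 libraries therefore go against the Tet2 part of their label at the RNA level, and each direction drawn from them below is a direction for the libraries that bear this label. The gate markers were present in every library, with Kit at 724 to 1060 CPM and Ly6a, the gene of Sca-1, at 14.7 to 32.8 CPM. The X-inactivation transcript Xist was high and Y-linked RNA near 0 in p300KO 3, Tet2KO 3, p300KO_Tet2KO 1 and p300KO_Tet2KO 3, while Tet2KO 1 held both, with Xist at 3280 CPM and 4 Y-linked genes together at 177 CPM. All 3 WT libraries held Y-linked RNA (257 to 276 CPM) and little Xist (1.56 to 2.79 CPM). Each mutant group held at least 1 library with high Xist, so the comparisons with WT are unbalanced by sex. The p300KO_Tet2KO and Tet2KO groups also differ in sex, as do all libraries with the p300 label from all those without it. Mitochondrial RNA made up 0.503% of counts in p300KO_Tet2KO 2 and 1.18% to 1.53% in the other libraries.

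Per kilobase of exon, the 10 regulators spanned a wide range of levels. Hlf was the highest, at 46.3 ± 7.80 CPM per kb (SD, n = 12), and Gfi1b followed at 15.8 ± 5.56 CPM per kb. Neither range reached that of the next gene in the order. Tgm2 (6.12 ± 1.96 CPM per kb), Mllt3 (4.32 ± 0.484), Mecom (3.80 ± 0.722), Fgd5 (3.79 ± 1.42) and Prdm16 (3.25 ± 0.581) came next. Their ranges overlapped from each gene to the next, and Mllt3, Mecom, Fgd5 and Prdm16 could not be firmly ordered. Mllt3 lay above Mecom in 9 of 12 libraries, Mecom above Fgd5 in 9 and Fgd5 above Prdm16 in 7. Ctnnal1 (1.78 ± 0.270) and Ndn (0.880 ± 0.358) lay lower, and Egr3 was lowest at 0.259 ± 0.127 CPM per kb. Egr3 rested on 5 to 108 counts per library and Ndn on 26 to 425, whereas each of the other genes had at least 224 counts in every library. The spread between libraries of a group was smallest for Ctnnal1, with an SD of 0.061 on the log2 scale, and largest for Egr3, with 0.84.

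**Figure D1:**
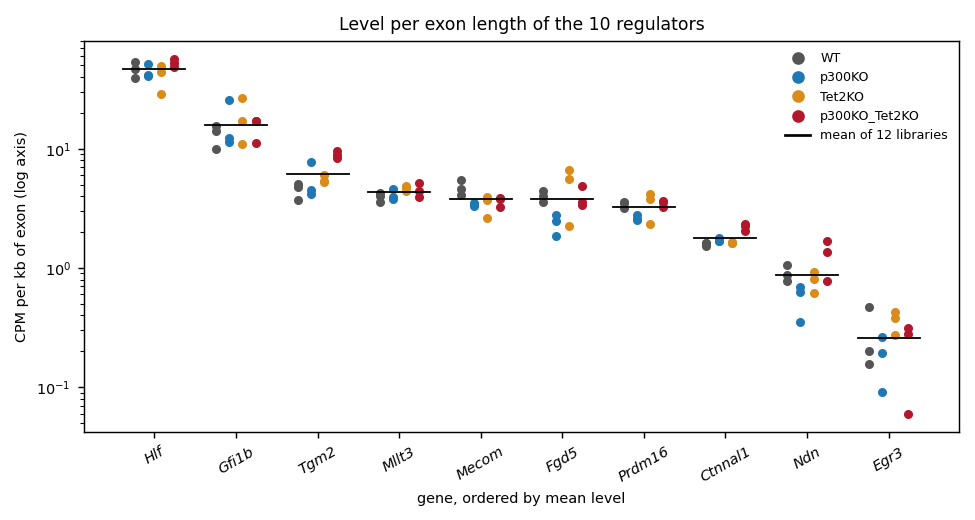
Each point is 1 library, coloured by group, and the vertical log axis gives CPM per kb of exon for each gene, with a line at the mean of the 12 libraries. Hlf stands highest at a mean of 46.3 CPM per kb and Egr3 lowest at 0.259.

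Promoter windows of 8 of the 10 genes, each of 300 bases around an annotated start, were taken from RefSeq on GRCm38.p6. Mecom and Mllt3 have 2 windows each, which gives 10 windows. The windows of Mecom and Prdm16 are shown because the related genes share sequence there. That of Hlf is shown because it holds the full palindrome of a searched motif. That of Ctnnal1 is shown because this gene was called in the averaged p300 comparison. Each is printed 5′ to 3′ along the gene's minus strand. Capitals mark the run that Mecom and Prdm16 share and, in Hlf, the palindrome.
Mecom, chr3:30509710-30510009, minus strand: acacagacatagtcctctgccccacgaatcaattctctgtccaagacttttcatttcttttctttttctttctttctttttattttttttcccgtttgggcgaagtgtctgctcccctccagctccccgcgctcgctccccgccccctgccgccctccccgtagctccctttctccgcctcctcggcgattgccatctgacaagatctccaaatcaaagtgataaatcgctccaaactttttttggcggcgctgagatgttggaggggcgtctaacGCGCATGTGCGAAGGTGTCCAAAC
Prdm16, chr4:154636824-154637123, minus strand: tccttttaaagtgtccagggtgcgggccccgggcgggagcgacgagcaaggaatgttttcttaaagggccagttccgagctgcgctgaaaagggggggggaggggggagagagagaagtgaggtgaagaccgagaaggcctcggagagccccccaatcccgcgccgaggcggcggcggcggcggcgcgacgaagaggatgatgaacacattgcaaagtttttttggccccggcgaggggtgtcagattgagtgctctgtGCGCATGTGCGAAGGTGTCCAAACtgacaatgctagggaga
Hlf, chr11:90390868-90391167, minus strand: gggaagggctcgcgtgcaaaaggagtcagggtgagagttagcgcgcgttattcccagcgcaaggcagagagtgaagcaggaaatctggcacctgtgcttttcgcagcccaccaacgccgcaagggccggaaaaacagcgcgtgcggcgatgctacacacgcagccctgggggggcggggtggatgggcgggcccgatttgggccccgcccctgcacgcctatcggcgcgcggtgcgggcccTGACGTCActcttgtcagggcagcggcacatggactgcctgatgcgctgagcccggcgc
Ctnnal1, chr4:56865162-56865461, minus strand: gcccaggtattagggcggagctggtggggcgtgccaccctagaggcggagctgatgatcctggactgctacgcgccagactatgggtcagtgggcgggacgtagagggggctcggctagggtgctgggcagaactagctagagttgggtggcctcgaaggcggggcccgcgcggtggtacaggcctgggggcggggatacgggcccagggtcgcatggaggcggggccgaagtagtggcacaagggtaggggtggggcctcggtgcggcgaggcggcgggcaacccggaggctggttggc

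The run of 24 bases shared by Mecom and Prdm16 was found in 2 of the 32851 windows of the reference, those of these 2 genes. No other pair of windows among the 10 shared a run of more than 15 bases. Of 6 motifs searched on both strands, TGACGT, the core bound by CREB and ATF factors, matched in the Hlf window, where TGACGTCA reads as the motif on either strand. The E-box CAGCTG matched in 1 window of Mllt3. The GATA motif AGATAA, the ETS motif CCGGAAG, the RUNX motif TGTGGT and the MYB motif CAACNG matched in 0 of the 10 windows. Each was searched in this 1 spelling only, so the windows may hold other spellings of the same motif. For example, TGATAA was not searched and is present in the printed window of Mecom and in that of Gfi1b. Over all 32851 windows the shares with a match were 7.51% for TGACGT, 16.3% for CAGCTG, 11.2% for AGATAA, 8.86% for CCGGAAG, 16.8% for TGTGGT and 35.0% for CAACNG. A match describes letters, not a bound site.

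**Figure D2:**
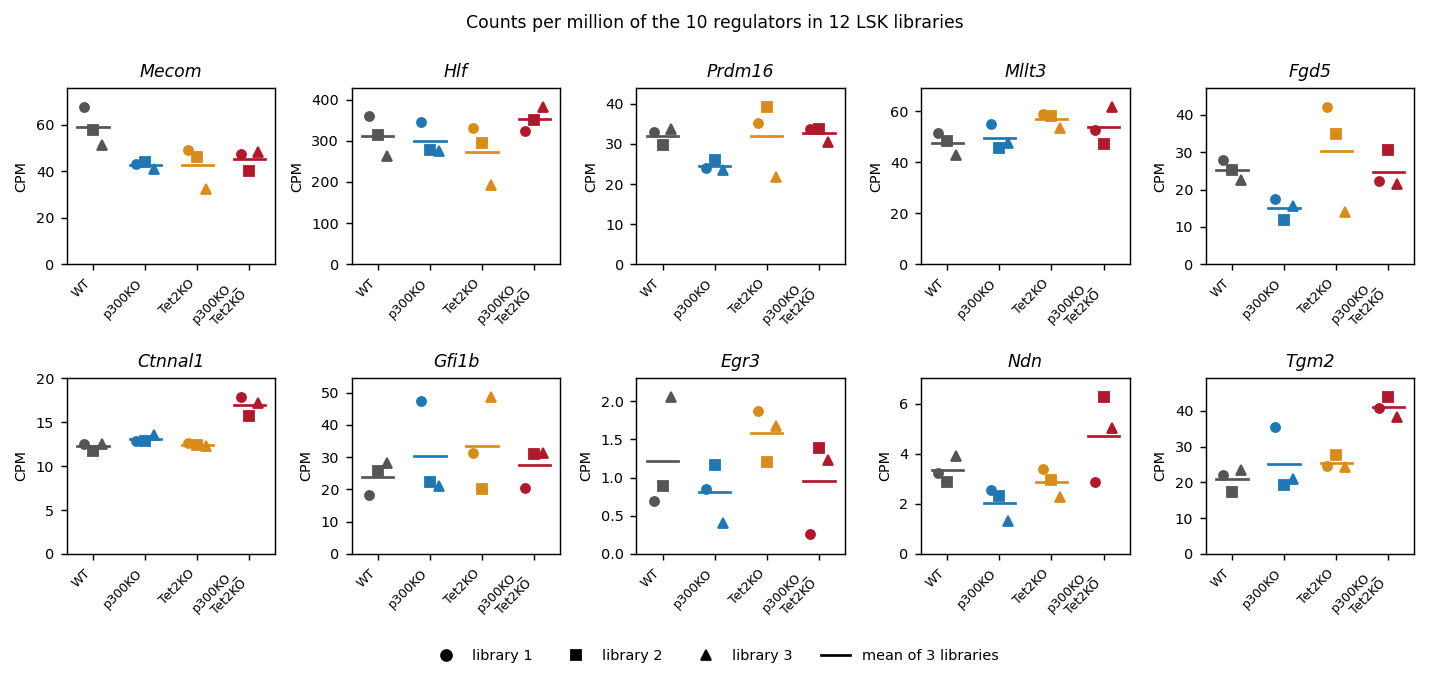
Each panel plots 1 gene, with CPM on a vertical axis from 0, 1 symbol per library and a line at the mean of each group of 3. Ctnnal1 and Tgm2 sit highest in p300KO_Tet2KO (15.7 to 17.9 CPM and 38.2 to 44.0 CPM), and Mecom sits highest in WT (51.2 to 67.6 CPM).

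Mecom lies on the minus strand of chromosome 3, from 29951296 to 30548008 on mm10. It was at 67.6, 57.7 and 51.2 CPM in the 3 WT libraries. It measured 43.0, 43.9 and 40.8 CPM in p300KO, 49.0, 46.2 and 32.4 CPM in Tet2KO, and 47.5, 40.0 and 48.1 CPM in the libraries labelled p300KO_Tet2KO. All 9 libraries of the mutant groups lay below all 3 WT libraries, and the mutant groups overlapped each other. Relative to WT, the log2 difference was -0.47 in p300KO (SE 0.147, adjusted p = 0.111), -0.47 in Tet2KO (adjusted p = 0.201) and -0.38 in p300KO_Tet2KO (adjusted p = 0.148). None of these passed the threshold in the edgeR quasi-likelihood test, although each unadjusted p was under 0.05 (0.00757, 0.00757 and 0.0219). The 3 comparisons share the WT libraries. With the sex covariate the differences were -0.44, -0.44 and -0.33 in the same order (edgeR adjusted p = 0.159, 0.293 and 0.315). The p300KO difference passed in 2 of 14 alternative settings, with the DESeq2 Wald test (adjusted p = 0.0443) and with only the compared libraries in the fit (adjusted p = 0.0439), and its adjusted p ran from 0.0439 to 0.416 over them. The antisense gene Mecomos, which overlaps 81 bases of Mecom exons, was at 1.28 to 6.37 CPM.

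Prdm16, on the minus strand of chromosome 4 (154316125 to 154636873), had its lowest group mean in p300KO. WT libraries held 32.9, 29.7 and 33.6 CPM and p300KO libraries 24.1, 26.1 and 23.4 CPM, so these groups did not overlap. The p300KO_Tet2KO libraries were at 33.7, 33.8 and 30.4 CPM, within the range of WT or just above it. Tet2KO was split, with 35.2 and 39.2 CPM in libraries 1 and 2 and 21.7 CPM in library 3. The p300KO difference from WT was -0.38 log2 units (SE 0.167) and did not pass the threshold (adjusted p = 0.277, range over 14 alternatives 0.050 to 0.543). It passed in 1 of these, the fit of the compared libraries alone, where the adjusted p rounds to 0.050.

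Hlf had the most RNA per exon length of the 10 genes in every group. The WT libraries held 360, 315 and 262 CPM of Hlf, with 346, 278 and 274 CPM in p300KO, with 331, 295 and 193 CPM in Tet2KO, and 323, 351 and 382 CPM in p300KO_Tet2KO. The groups overlapped in all 4 pairwise comparisons, and no comparison was called. The interval of the log2 difference between p300KO_Tet2KO and Tet2KO ran from -0.02 to 0.75 (adjusted p = 0.335).

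Gfi1b and Egr3 spread widely within groups, and the groups overlapped in all 4 pairwise comparisons. Gfi1b was at 18.3, 25.6 and 28.1 CPM in WT and 31.4, 20.1 and 48.8 CPM in Tet2KO. It reached 47.4 CPM in p300KO 1, against 22.3 and 21.0 CPM in the other p300KO libraries, and measured 20.4, 31.1 and 31.4 CPM in p300KO_Tet2KO. Egr3 never exceeded 2.06 CPM, in WT 3, and its lowest value was 0.261 CPM in p300KO_Tet2KO 1. Neither gene was called in any of the 6 comparisons, and the intervals of Egr3 were the widest of the 10 genes in each of them.

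Mllt3 was at 51.5, 48.1 and 42.9 CPM in WT and 59.0, 57.9 and 53.2 CPM in Tet2KO, which did not overlap. In p300KO it measured 55.0, 45.7 and 47.3 CPM and in p300KO_Tet2KO 52.7, 47.0 and 61.6 CPM, both of which overlapped WT. The Tet2KO difference from WT was 0.25 log2 units (SE 0.114, unadjusted p = 0.0447) and did not pass the threshold (adjusted p = 0.375, range over 14 alternatives 0.325 to 0.678).

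Fgd5, on the plus strand of chromosome 6 (91978878 to 92076004), was at 27.9, 25.1 and 22.6 CPM in WT and at 17.6, 11.8 and 15.6 CPM in p300KO. All p300KO libraries lay below all WT libraries. The Tet2KO libraries spread from 42.1 and 34.8 CPM down to 14.1 CPM in library 3, and the p300KO_Tet2KO libraries were at 22.3, 30.5 and 21.4 CPM. The log2 difference of p300KO from WT was -0.76 (SE 0.307, unadjusted p = 0.0286, adjusted p = 0.233, range over 14 alternatives 0.0322 to 0.523). Averaged over both Tet2 backgrounds, the difference between the 6 p300-labelled and the 6 p300-intact libraries was -0.53 (SE 0.215, adjusted p = 0.167). Without Tet2KO 3 this averaged difference was -0.70 with an adjusted p of 0.00445. This was the only 1 of 19 alternatives that called Fgd5 lower (range 0.00445 to 0.351). With the sex covariate the averaged difference was -0.39 (edgeR adjusted p = 0.337). Prdm16 was likewise called in the average in only 1 of 19 alternatives. Its averaged difference went from -0.18 (adjusted p = 0.427) to -0.29 (adjusted p = 0.0160) without Tet2KO 3. With the sex covariate it was -0.09 (edgeR adjusted p = 0.693).

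Ctnnal1, on the minus strand of chromosome 4 (56810935 to 56865188), was the only regulator called in the comparison of p300KO_Tet2KO with Tet2KO and in the averaged p300 comparison. The 3 WT libraries held 12.5, 11.7 and 12.5 CPM, with 12.8, 12.8 and 13.5 CPM in p300KO and 12.6, 12.4 and 12.3 CPM in Tet2KO. The libraries labelled p300KO_Tet2KO held 17.9, 15.7 and 17.2 CPM, and each of them lay above all 9 others. The log2 difference was 0.44 relative to Tet2KO (SE 0.106, adjusted p = 0.0367) and 0.47 relative to WT (SE 0.106, adjusted p = 0.0155). The averaged difference was 0.27 (SE 0.0748, adjusted p = 0.0421). It averages the 0.44 relative to Tet2KO with the difference of p300KO from WT. The latter was 0.09 and was not called (SE 0.106, edgeR adjusted p = 0.734). All 3 calls sit near the threshold. The first was kept in 6 of 14 alternatives (adjusted p 0.00361 to 0.168), the second in 8 of 14 (0.00108 to 0.0729) and the third in 5 of 19 (0.0132 to 0.145), and the direction was the same in all of them. Leaving out p300KO_Tet2KO 1 ended all 3 calls (adjusted p = 0.129, 0.0594 and 0.0987), as did leaving out p300KO_Tet2KO 3 (0.111, 0.0571 and 0.0922), while without p300KO_Tet2KO 2, the library low in mitochondrial RNA, all 3 remained (0.0413, 0.0160 and 0.0311). Leaving out any 1 Tet2KO library ended the call against Tet2KO (0.0777 to 0.119), and leaving out WT 1 or WT 2 that against WT (0.0521 and 0.0729). In the average, leaving out any library other than p300KO_Tet2KO 2 ended the call (0.0627 to 0.108). With the Y-linked share as a covariate for sex, the call against Tet2KO was kept (0.0471), and those against WT (0.0575) and in the average (0.0757) were not. The interaction, which asks whether the p300 difference depends on the Tet2 label, was 0.35 log2 units for Ctnnal1 (SE 0.150, adjusted p = 0.681).

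Over the 12 libraries, the 2 genes whose centred log2 CPM was nearest to that of Ctnnal1 were Xkr5 (root-mean-square difference 0.0932) and Eif2ak4 (0.0941), where the median of the 10283 genes compared was 0.245. Both were chosen by this likeness, so their highest group means in p300KO_Tet2KO follow from the choice. The distance is also small for any 2 genes that vary little between libraries. Eif2ak4, a kinase that senses amino acid shortage, was at 96.0 to 99.9 CPM in p300KO_Tet2KO against 75.8 to 84.2 CPM in WT.

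Tgm2, on the minus strand of chromosome 2 (158116402 to 158146436), showed the largest called difference of the 10 genes. WT libraries held 22.2, 17.3 and 23.5 CPM, against 40.8, 44.0 and 38.2 CPM in p300KO_Tet2KO, with no overlap. The Tet2KO libraries lay between, at 24.7, 27.6 and 24.4 CPM, all above WT. The p300KO libraries were at 35.5, 19.2 and 21.0 CPM, with library 1 high. The difference of p300KO_Tet2KO from WT was 0.97 log2 units (SE 0.198, adjusted p = 0.00869) and passed in all 14 alternatives (0.845 to 1.05 log2 units, adjusted p 6.32e-05 to 0.0489). Relative to Tet2KO the difference was 0.68 (SE 0.196) and just missed the threshold (adjusted p = 0.0788, range 0.0161 to 0.204, past it in 4 of 14 alternatives). The averaged difference was 0.47 (SE 0.139, adjusted p = 0.0533, range 0.0122 to 0.132). It passed in 4 of 19 alternatives, among them without p300KO 2 (0.0260) and without p300KO 3 (0.0475). Without p300KO 1, the high library, it was 0.31 (adjusted p = 0.0669).

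Exons of Tgm2 overlap those of Rprd1b on the other strand over 370 bases. They also overlap those of the transcript Gm20412, again on the other strand, over 633 bases. The estimated count of Tgm2 was not a whole number in any of the 12 libraries. How strand was used in counting is not given in the sources used here, so reads from the shared bases may count for any of these genes. Gm20412 was at most 0.352 CPM, in p300KO. Rprd1b itself was at 71.8 to 86.1 CPM in all libraries and was called in none of the 6 comparisons. Tgm2 and Fgd5 are also known from endothelium. Of the 12 endothelial genes listed, Cdh5 (at most 0.669 CPM), Cldn5 (0.558), Lyve1 (0.223) and Sox17 (0.112) were below 1 CPM in every library. Flt1 reached 1.11 CPM, Stab2 1.91 CPM, Kdr 3.37 CPM, Plvap 3.41 CPM and Emcn 17.6 CPM. The summed endothelial list, in which Pecam1, Tie1 and Egfl7 weigh most, was at 319 to 344 CPM in WT, 227 to 252 CPM in p300KO, 282 to 360 CPM in Tet2KO and 244 to 303 CPM in p300KO_Tet2KO. The part of endothelial RNA in the values of Tgm2 and Fgd5 was not tested.

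Ndn, on the plus strand of chromosome 7 (62346569 to 62350262), was low in all groups. WT held 3.25, 2.88 and 3.90 CPM against 2.55, 2.30 and 1.31 CPM in p300KO, which lay wholly below WT. Tet2KO held 3.41, 2.96 and 2.26 CPM against 2.87, 6.28 and 5.03 CPM in p300KO_Tet2KO, which overlapped. The interaction was 1.40 log2 units (SE 0.441). Its unadjusted p was 0.00758 and its adjusted p 0.586, so it fails the correction over all genes. Relative to Tet2KO, the difference of p300KO_Tet2KO was 0.72 (SE 0.308, adjusted p = 0.261). It was 0.45 without p300KO_Tet2KO 2 (adjusted p = 0.595) and 0.97 without p300KO_Tet2KO 1 (adjusted p = 0.126).

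Counted over the 10 regulators, few differences passed the test. In p300KO_Tet2KO against Tet2KO 1 of 10 was called (Ctnnal1), where 3.90% of all 17842 genes were called. In p300KO against WT the count was 0 of 10, beside 3.91% of all genes, and in Tet2KO against WT it was 0 of 10, beside 0.633%. In p300KO_Tet2KO against WT 2 of 10 were called (Ctnnal1 and Tgm2, both higher), beside 8.43%. In the averaged p300 comparison 1 of 10 was called (Ctnnal1), beside 9.06%. Counts of 0 to 2 in 10 genes are too small to set apart from these shares. In the interaction 0 of the 10 and 0 of the 17842 genes were called (0%) by edgeR, where 1268 genes had an unadjusted p under 0.05, among them Mecom, Ctnnal1 and Ndn, and other tools and settings called up to 49 genes and none of the 10.

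The median log2 difference of the 10 regulators was -0.22 in p300KO against WT, where the median over all genes was 0.01. It was 0.14 in Tet2KO against WT, 0.17 in p300KO_Tet2KO against WT and 0.05 in p300KO_Tet2KO against Tet2KO, beside medians over all genes of 0.00, 0.02 and 0.02. Groups did not overlap for 5 of 10 regulators in p300KO against WT (Mecom, Prdm16, Fgd5 and Ndn lower, Ctnnal1 higher), beside 23.8% of all genes. They did not overlap for 3 of 10 in Tet2KO against WT (Mecom lower, Mllt3 and Tgm2 higher), beside 21.4%, for 3 of 10 in p300KO_Tet2KO against WT (Mecom lower, Ctnnal1 and Tgm2 higher), beside 27.5%, and for 2 of 10 in p300KO_Tet2KO against Tet2KO (Ctnnal1 and Tgm2 higher), beside 19.7%.

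**Figure D3:**
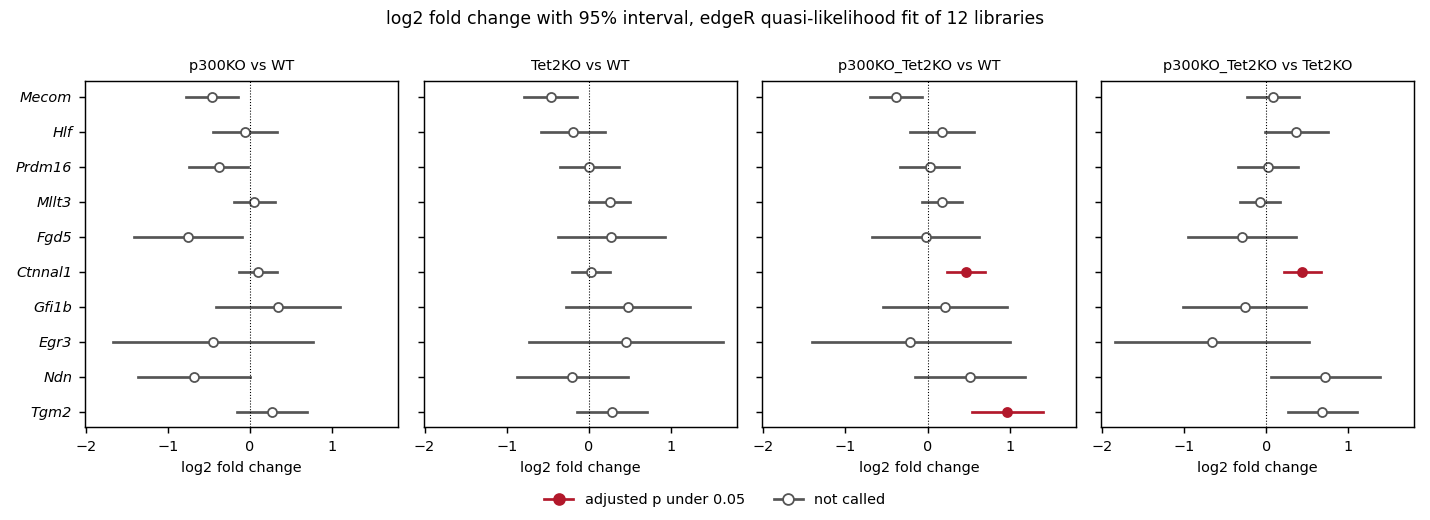
Points give the log2 fold change of each gene in 4 comparisons and lines its 95% interval, with filled red symbols where the adjusted p was under 0.05. Only Ctnnal1 (0.47) and Tgm2 (0.97) in p300KO_Tet2KO vs WT and Ctnnal1 (0.44) in p300KO_Tet2KO vs Tet2KO are filled.

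Within the Tet2KO group the same library was lowest for most of the regulators. Tet2KO 3 was the lowest library of its group for 8 of 10 (Mecom, Hlf, Prdm16, Mllt3, Fgd5, Ctnnal1, Ndn and Tgm2) and the highest for Gfi1b. Over all genes Tet2KO 3 was the lowest of its group for 37.7% and the highest for 38.0%. Some of the gaps were small. Ctnnal1 was at 12.3 CPM against 12.4 and 12.6 CPM, and Tgm2 at 24.4 CPM against 24.7 and 27.6 CPM. Tet2KO 1, which held both Xist and Y-linked RNA, was the highest of the group for 7 of 10, beside 35.2% of all genes. Other groups held such runs too. In its group, p300KO 1 was highest for 6 of 10 (34.3% of all genes) and lowest for 0 (35.8%). In the same way p300KO 3 was lowest for 6 (30.1%) and WT 3 highest for 6 (40.2%). Tet2KO 3 also had the highest summed level of mature lineage markers, at 4510 CPM against 1350 to 2890 CPM in the other 11 libraries. Most of this sum was Mpo, a gene of the myeloid granules that progenitors also express, at up to 4150 CPM in Tet2KO. Of the other 14 genes of the list, Elane, also of those granules, reached 294 CPM and Itgam 64.9 CPM in Tet2KO, the remaining ones at most 6.80 CPM (Cd4), and Ly6g was at 0 CPM. Its summed MolO genes were at 772 CPM, against 1070 and 1030 CPM in the other Tet2KO libraries. The part of these differences between libraries in the values of the regulators was not tested.

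**Figure D4:**
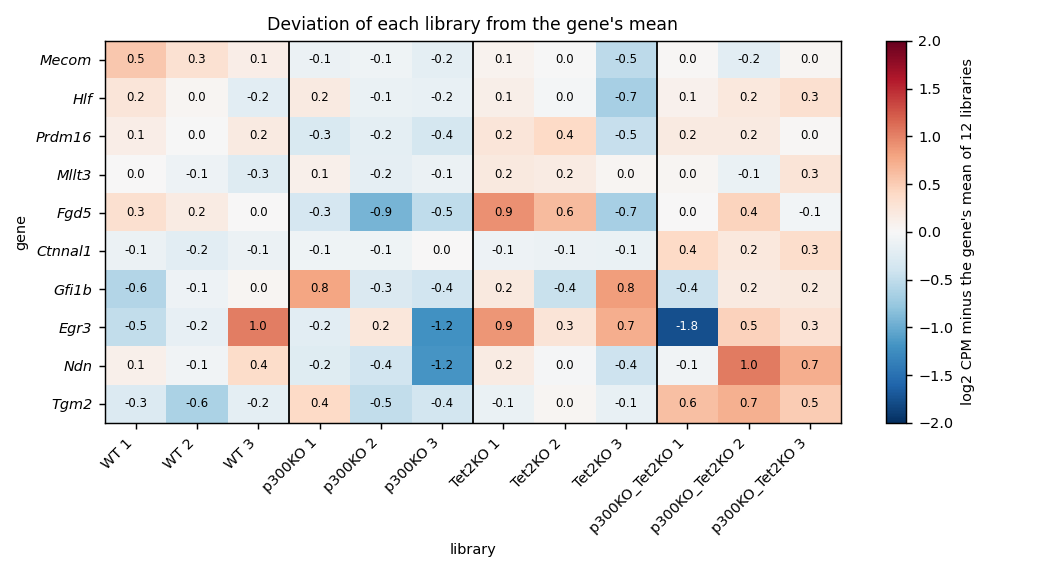
Rows are genes and columns libraries, and colour and number give log2 CPM minus the gene's mean over the 12 libraries. Tet2KO 3 is below the mean in Mecom, Hlf, Prdm16 and Fgd5 and above it in Gfi1b, and the 3 p300KO_Tet2KO libraries are above it in Ctnnal1 and Tgm2.

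The other lists are given for the averaged p300 comparison, in which 9.06% of all genes were called. MolO genes, which mark functional stem cells in single-cell profiles, were called higher in 1 and lower in 3 of the 27 tested of 28 in the averaged p300 comparison. Trim47 was higher (0.68 log2 units, adjusted p = 0.0306), and Gimap6 (-0.98, adjusted p = 0.00601), Fads3 (-0.59, adjusted p = 0.0266) and Cd82 (-0.34, adjusted p = 0.0459) were lower, and the list median was -0.13. These 4 calls became 1 to 4 with 1 library left out (1 without p300KO 1, and 2 without any of WT 1, WT 2, WT 3, p300KO 2, p300KO 3, Tet2KO 2 or p300KO_Tet2KO 1) and 4 to 7 under the other alternatives. The summed level of the list was 962 to 1010 CPM in WT, 766 to 845 CPM in p300KO, 772 to 1070 CPM in Tet2KO and 685 to 931 CPM in p300KO_Tet2KO. Among 22 other stem cell regulators, 2 were higher and 2 lower, and 3 to 6 were called under the alternatives. Gata2, a factor of stem and megakaryocyte-erythroid cells, was 0.58 higher (adjusted p = 0.00199) and Tal1 0.38 higher (adjusted p = 0.0179). Slamf1, the gene of the stem cell marker CD150, fell by 0.81 (adjusted p = 0.0126) and Gata3 by 0.55 (adjusted p = 0.0172). Slamf1 was at 1.31 to 1.72 CPM in p300KO_Tet2KO, below the 3.11 to 4.43 CPM of Tet2KO. In p300KO it was at 2.13 to 3.83 CPM, which overlapped the 3.23 to 4.36 CPM of WT. That difference was -0.35 log2 units and was not called (edgeR adjusted p = 0.557). For each list here and below, the median over all genes in this comparison was 0.02.

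Close relatives and partners of the regulators gave 1 higher and 3 lower calls among 29 tested of 31 (3 to 6 calls under the alternatives), beside the same 9.06% of all genes, with a list median of -0.02. Maged1, of the MAGE family like Ndn, was at 48.0 ± 2.92 CPM in WT, 84.5 ± 7.65 CPM in p300KO, 50.8 ± 13.9 CPM in Tet2KO and 110 ± 12.4 CPM in p300KO_Tet2KO (SD, n = 3), an averaged rise of 0.96 log2 units (adjusted p = 0.000299). Gfi1, the paralog of Gfi1b, was at 32.1 to 38.0 CPM in WT, at 30.8 to 33.7 CPM in p300KO and 28.9 to 34.7 CPM in Tet2KO. It was at 13.2 to 18.4 CPM in p300KO_Tet2KO, 0.95 log2 units below Tet2KO (SE 0.128, adjusted p = 0.00149). Nfil3, a bZIP repressor that competes with Hlf and its PAR relatives, fell by 1.08 in the same comparison (adjusted p = 0.0100), and Aff1, a partner of Mllt3 in the elongation machinery, by 0.38 (adjusted p = 0.0195). In p300KO against WT neither was called (Nfil3 -0.47, edgeR adjusted p = 0.247, and Aff1 -0.09, edgeR adjusted p = 0.661). Aff1 was at 157 to 166 CPM in WT, 178 to 190 CPM in Tet2KO and 139 to 150 CPM in p300KO_Tet2KO. F13a1, another transglutaminase gene, was at 35.0 to 68.0 CPM in WT, 28.4 to 81.2 CPM in p300KO, 74.2 to 271 CPM in Tet2KO and 17.8 to 41.2 CPM in p300KO_Tet2KO. It fell by 2.40 from Tet2KO, the group in which it was highest, to p300KO_Tet2KO (SE 0.510, adjusted p = 0.0210), while the log2 difference from WT was -0.58 (adjusted p = 0.571). The PAR relatives Dbp and Tef, the Egr family members Egr1 and Egr2, and Fgd1, Fgd2, Fgd3, Fgd4 and Fgd6 were called in none of the 6 comparisons. Tgm3 and Magel2 were at most 0.0817 and 0.0418 CPM and were not tested.

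Markers of other cell types also differed in the averaged p300 comparison. Of 14 lymphoid-primed progenitor genes, 12 were lower and 0 higher, led by Il7r (-3.76 log2 units), Il12a (-1.18), Rag2 (-3.34) and Notch1 (-1.42), and the list median was -1.30. Their summed level was 3780 to 4550 CPM in WT, 1660 to 2680 CPM in p300KO, 3040 to 3690 CPM in Tet2KO and 1830 to 3290 CPM in p300KO_Tet2KO. Ighm, which was not called (0.55, adjusted p = 0.462), carried much of the last sum, with a mean of 1570 CPM against 689 CPM in Tet2KO, while Dntt went from a mean of 389 CPM in Tet2KO to 38.5 CPM. Of 12 megakaryocyte and platelet genes, 3 were higher and 0 lower (Itga2b, 0.80, Rab27b, 0.55 and Gp1ba, 0.39), with a list median of 0.39 and summed levels of 322 to 329, 462 to 551, 347 to 377 and 376 to 479 CPM in the same order of groups. The list median was 1.25 in p300KO vs WT, with 4 genes called higher, and -0.24 in p300KO_Tet2KO vs Tet2KO, where Itga2b was called higher and Rab27b had means of 17.9 and 17.8 CPM. Over all genes the medians were 0.01 and 0.02 in these comparisons, and 3.91% and 3.90% were called. No gene of the list was called in the interaction (list median -1.16). Of 9 tested endothelial genes of 12, Pecam1 (-0.87) and Egfl7 (-0.65) were lower, with a list median of -0.34. Of 13 erythroid genes, Hbb-bs was higher (2.71), with a list median of -0.05, and of 12 tested mature lineage genes of 15, S100a9 was higher (1.70), with a list median of 0.02. Each of these last 2 counts was 0 to 2 with 1 library left out. No gene was called among 15 immediate-early genes (list median -0.07), 5 tested stromal genes of 10 (0.08) and 4 genes of the gate (-0.08). The part of these shifts in the values of the 10 regulators was not tested.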

How the data were processed

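The RNA of 12 libraries was made from ribosomal RNA-depleted RNA with the Universal Plus mRNA-Seq kit and read as pairs of 100 bp. Per the labels and the study's methods, the authors aligned reads to mm10 with STAR 2.6.0c and deposited RSEM 1.3.0 expected counts per gene, without normalization. The Gencode release and the strand setting of counting are not given in the sources used here. Counts were rounded to whole numbers. Genes were filtered with filterByExpr, scaled by TMM and fitted over all 12 libraries with edgeR 4.0.16 in R 4.3.3 (quasi-likelihood test, two-sided, 1 mean per group). P-values were adjusted by Benjamini-Hochberg over 17842 genes, and a gene was called at an adjusted p under 0.05. The smallest p an exact permutation of 3 and 3 libraries allows is 0.1. The study's own tests corrected for spike-in RNA, which was not used here.

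The 10 genes and the 11 gene lists were chosen with earlier results of these data known. Named besides the 10 genes and their paralogs were the label and gate checks, up to 4 called genes of each list by the smallest p in the averaged comparison, and the 2 genes most like a called regulator among genes of at least 5 CPM. Positions and exon lengths are from Gencode vM21 on mm10. Alternatives were DESeq2 1.42.0 size factors and Wald test, limma-voom (limma 3.58.1), other count filters, only the libraries compared, a replicate block, a sex covariate and each library left out.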

Additional observations from a re-analysis of the deposited data

How the results depend on the processing

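The number of the 10 regulators called was 0 under every alternative in Tet2KO vs WT and in the interaction. In p300KO_Tet2KO vs Tet2KO it was 1 (Ctnnal1), and 2 with the DESeq2 Wald test and with limma-voom (Ctnnal1 and Tgm2). Without a filter on low counts and with only the libraries compared it was also 1, but Tgm2 (adjusted p = 0.0473 and 0.0263) in place of Ctnnal1 (0.112 and 0.168). In p300KO vs WT it was 0, 1 with the DESeq2 Wald test (Mecom) and 3 with only the libraries compared (Mecom, Prdm16 and Fgd5). In p300KO_Tet2KO vs WT it was 2, and 1 without a filter on low counts and with the sex covariate. In the averaged comparison it was 1 (Ctnnal1), 2 with the DESeq2 Wald test and 0 with the sex covariate. Without a filter on low counts it was also 1 in the average, but Tgm2 (edgeR adjusted p = 0.0329) in place of Ctnnal1 (0.145). With 1 library left out it was 0 to 1 in p300KO_Tet2KO vs Tet2KO, 1 to 2 in p300KO_Tet2KO vs WT and 0 to 2 in the average. The cause of these moves was not tested.

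Same-numbered libraries deviated together little (correlations -0.142 to 0.126). With 3 libraries per group, these correlations cannot decide whether a shared number marks a shared batch. With the replicate block 0 regulators were called in p300KO_Tet2KO vs Tet2KO and 0 in the average. Some libraries correlated best with the same number in the other group, and others did not.

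Over all genes, 695 were called in p300KO_Tet2KO vs Tet2KO, and 345 to 1252 under the alternatives. For p300KO vs WT these counts were 698 and 244 to 1219, for Tet2KO vs WT 113 and 36 to 497, and for p300KO_Tet2KO vs WT 1504 and 872 to 2004. Egr3 (5 to 108) and Ndn (26 to 425) had the fewest counts per library of the 10 regulators. The part of depth in the width of their intervals was not tested.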
